A study of Homo sapiens with 6 samples.

Results

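The 38 genes described here are mitotic genes, taken by name from 19775 genes read by an expression array, with each gene represented by its brightest probe set that carries exactly 1 gene symbol. They encode the kinases, cyclins, checkpoint proteins, motors and spindle factors of cell division, and all 38 were measured. They were followed in human umbilical vein endothelial cells (HUVECs), primary cells from the inner lining of the umbilical cord vein, under 2 conditions. In the control group the cells were transfected with a scrambled siRNA, a short duplex RNA with no intended target. In the other group they received an siRNA directed at ANRIL, a long noncoding RNA made from the CDKN2A and CDKN2B locus. The medium, rich in endothelial growth factors, and the transfection reagent were shared by both groups. Each group had 3 arrays, 1 for each transfected sample. The time between transfection and harvest, the cell passage, and whether the 3 sets came from separate donors were not stated in the labels used here, so p-values measure the spread between these samples. The sense strand of the targeting duplex is shown because every comparison rests on it.
ANRIL siRNA sense strand: ggauaugugccaugaguaagaauaa

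Mitosis begins when CDK1, bound to A- and B-type cyclins, phosphorylates its many substrates. The Polo-like and Aurora kinases then build the spindle, the spindle checkpoint holds the cell until every chromosome is attached, and the anaphase-promoting complex (APC/C) with CDC20 ends the phase by marking cyclin B and securin for destruction. Most of these genes are transcribed late in the cell cycle and are low in resting cells, so their summed RNA is commonly read as a sign of proliferation, which cultured HUVECs retain in growth medium. Their promoters share 2 elements. The cell cycle genes homology region (CHR) is bound by the MuvB proteins, within the repressive DREAM complex in resting cells and with B-MYB and FOXM1 in dividing ones. CCAAT boxes are bound by NF-Y.

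To look for the letters of these elements, RefSeq promoters of build GRCh38.p14 were searched in windows of 300 bases, from 250 bases before to 50 after each gene start. Of the 38 genes 32 had an entry. AURKA, TTK, UBE2C, BIRC5, TPX2 and FOXM1 had none. The CHR letters TTTGAA, or the variant TTTAAA, were looked for on both strands, as was CCAAT, and matches may overlap. At least 1 window held TTTGAA or TTTAAA in 28 of the 32 genes (87.5%), against 27.9% of the 27305 genes in the table. CCAAT was found in 25 of 32 (78.1%, against 39.7%), and 20 of 32 held CHR letters and CCAAT in 1 window (62.5%, against 11.2%). AURKB, BUB1, CCNA2 and NEK2 had no CHR letters in any window, which says only that these letters are not there. Among these 32 genes, the last 100 bases before the gene start follow for the 3 with the smallest p among those lower with ANRIL siRNA, the 3 with the smallest p among those higher, and the 2 with a difference nearest 0. Capitals mark the CHR and CCAAT letters on either strand.
KIF23, lower, chr15:69414249-69414348, plus strand: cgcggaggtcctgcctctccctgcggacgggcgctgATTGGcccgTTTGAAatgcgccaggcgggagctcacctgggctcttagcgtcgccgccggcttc
ASPM, lower, chr1:197146670-197146769, minus strand: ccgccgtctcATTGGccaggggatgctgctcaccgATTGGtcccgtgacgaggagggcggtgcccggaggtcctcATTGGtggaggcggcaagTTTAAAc
CCNB1, lower, chr5:69167050-69167149, plus strand: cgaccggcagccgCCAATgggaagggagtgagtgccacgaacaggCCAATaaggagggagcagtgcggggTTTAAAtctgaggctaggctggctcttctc
HMMR, higher, chr5:163460532-163460631, plus strand: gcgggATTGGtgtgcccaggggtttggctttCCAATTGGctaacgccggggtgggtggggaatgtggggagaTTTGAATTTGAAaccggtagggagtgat
KIF4A, higher, chrX:70290004-70290103, plus strand: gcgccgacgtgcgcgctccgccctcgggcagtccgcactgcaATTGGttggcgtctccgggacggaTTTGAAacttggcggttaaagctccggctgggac
KIF20A, higher, chr5:138179012-138179111, plus strand: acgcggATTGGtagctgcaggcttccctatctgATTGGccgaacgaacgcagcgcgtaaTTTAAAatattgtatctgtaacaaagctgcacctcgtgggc
CENPA, nearest 0, chr2:26785956-26786055, plus strand: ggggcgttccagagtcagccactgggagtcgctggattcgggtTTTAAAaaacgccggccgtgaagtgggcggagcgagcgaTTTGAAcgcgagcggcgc
PLK1, nearest 0, chr16:23678789-23678888, plus strand: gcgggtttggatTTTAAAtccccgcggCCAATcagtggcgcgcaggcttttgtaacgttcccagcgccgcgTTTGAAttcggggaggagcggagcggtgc

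Genes on either side of 0 carried the same letters. CHR letters were present in 17 of 20 matched genes that were higher with ANRIL siRNA and in 11 of 12 that were lower. CCAAT was present in 16 of 20 and 9 of 12. The 34 matches to TTTGAA had a median position of −28.5, counted in bases from the gene start to the first base of the match, and 20 of them lay in the last 100 bases before the start. Matches are a description of the letters and not a measured binding site.

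**Figure D1:**
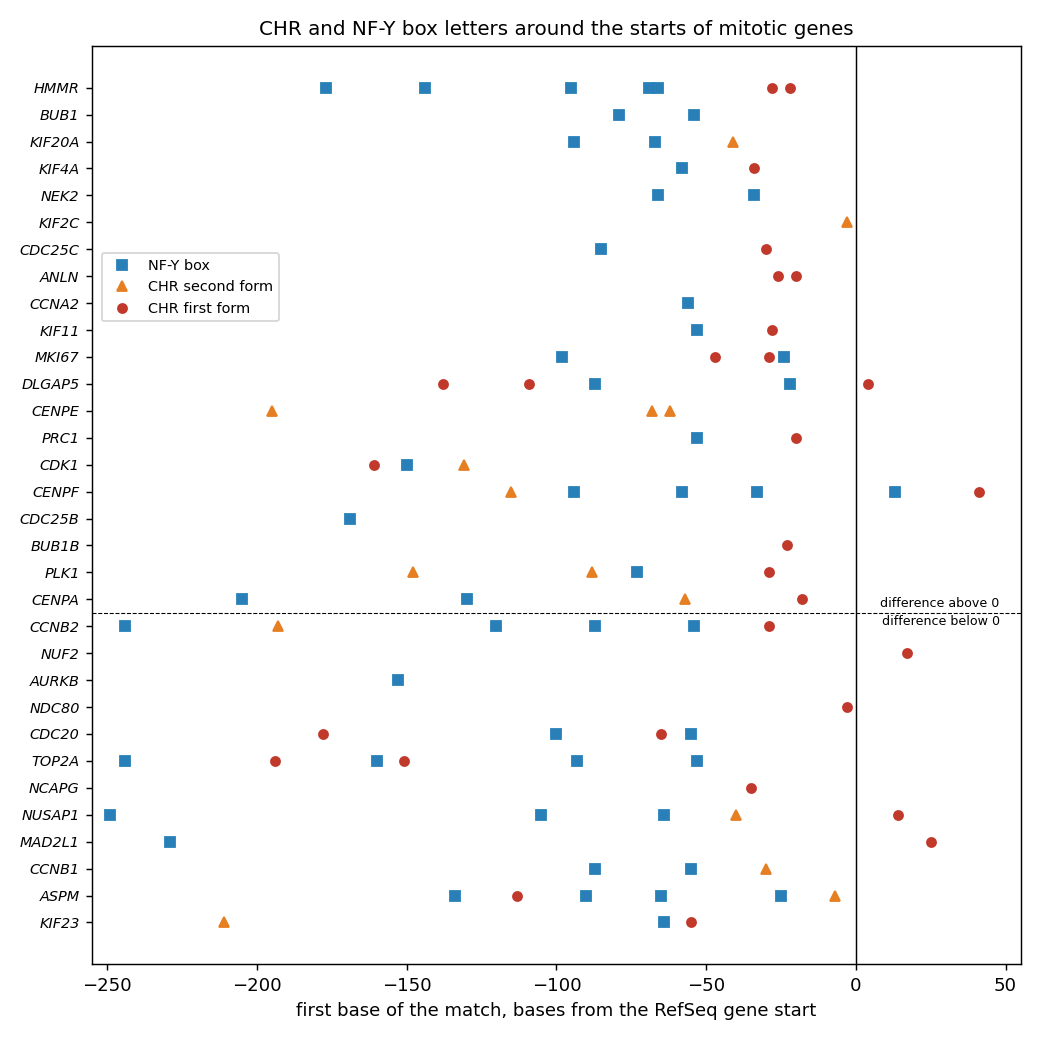
Position of CHR letters (circles and triangles) and of the NF-Y box (squares) in bases from the RefSeq gene start, for 32 mitotic genes ordered by their log2 difference, with 1 window per gene (where a gene has several, the one of lowest coordinate that holds a match). The marks crowd just before the start both above and below the dashed line, which separates genes higher with ANRIL siRNA from the 12 lower.

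Values on the arrays are RMA log2 intensities as deposited, and differences are ANRIL siRNA minus control siRNA, so that 1 unit is a doubling. Since each probe set binds its target differently, intensities of different probe sets are not read as relative amounts of RNA. They serve only to rank probe sets by brightness and, for cell type markers, in sums per array. Array medians were 6.178, 6.14 and 6.1673 in controls and 6.2196, 6.185 and 6.2299 with ANRIL siRNA, each of the latter above every control. Pairs of arrays correlated across probe sets at 0.9971 to 0.9977 within groups and at 0.9964 to 0.9974 between them. The single probe set for ANRIL, listed as CDKN2B-AS1, was near the floor of the array, at 4.08, 4.05 and 3.95 in controls and 3.69, 4.05 and 4.05 with ANRIL siRNA. The groups overlapped (difference −0.10 ± 0.10, SE, n = 3 per group, limma adjusted p = 0.606), so the depletion was not checked by these data. For the endothelial label, PECAM1, CDH5, VWF and 7 further markers were read, all 10 above the median signal of all genes. Also above it were 2 of 8 fibroblast, 3 of 8 smooth muscle and pericyte, 2 of 8 leukocyte and 2 of 6 epithelial markers. Among these, ACTA2, RGS5 and KRT18 lay in deciles 9 and 10 of mean signal, so brightness alone did not single out endothelium. All 10 endothelial markers were lower with ANRIL siRNA, with a summed linear intensity of 42500 to 45600 against 47200 to 50100 in controls. They lay in deciles 8 to 10 of mean signal, where 80.2% to 87.7% of all genes were below 0. Of 8 leukocyte markers 7 were higher, with sums of 719 to 799 against 637 to 696. These lay in deciles 1 to 6, where 26.9% to 47.1% of all genes were below 0. Fibroblast, smooth muscle and pericyte, and epithelial markers had median differences of −0.05, 0.05 and −0.01, with 3 of 8, 5 of 8 and 3 of 6 markers higher. Sums of fibroblast markers were 1190 to 1280 with ANRIL siRNA against 1150 to 1190 in controls. Those of smooth muscle and pericyte markers were 15000 to 15500 against 15600 to 15900. Epithelial sums were 3410 to 3500 against 3770 to 4040, so these sums also moved. The 3′ minus 5′ signal of ACTB, which grows as RNA degrades, was 0.72 ± 0.13 (SD, n = 3) with ANRIL siRNA and 0.54 ± 0.05 in controls (exact permutation test, two-sided p = 0.2, and 3 against 3 arrays cannot go below 0.1). That of GAPDH was 0.05, 0.09 and 0.04 with ANRIL siRNA and −0.01, 0.01 and −0.01 in controls, without overlap (exact permutation test, two-sided p = 0.1). The part of these markers and of RNA ends in the values below was not tested.

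The probe sets of the mitotic genes read nearly the same intensity under both siRNAs. Whether each RNA was present was not tested. NDC80, NUF2 and KIF23 were in decile 1 of mean signal, near the floor of the array. None of the 38 passed the limma test over all genes (smallest adjusted p = 0.167, for KIF23), where 0% of the 19775 genes passed. At an unadjusted p under 0.05 there were 6 mitotic genes (15.8%), 3 higher and 3 lower, against 18.0% of all genes, with 9.83% higher and 8.16% lower. The differences were small, 21 of 38 being below 0.1 in size, 14 between 0.1 and 0.2, and 3 above 0.2. Their unadjusted 95% intervals all lay inside ±0.5. The widest reach was 0.43 upward, for the checkpoint kinase gene BUB1, and −0.40 downward, for the motor gene KIF23. A rise of more than 1.35-fold or a fall of more than 1.32-fold thus lay outside the interval of every mitotic gene at its brightest probe set. The intervals bound the signal of that probe set, and those of the dimmer probe sets are not given here. A larger share of dividing cells and more mitotic RNA in each such cell cannot be told apart in bulk RNA.

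The 38 genes did not move in 1 direction. The median difference was 0.03, with quartiles of −0.05 and 0.11, beside a median of −0.0046 and quartiles of −0.08 and 0.09 over all genes. Of the 38 genes 14 lay below 0 (36.8%, against 51.4% of all genes). That split moved with the scaling, as did that of all genes. After repeated quantile normalization 18 lay below 0 (47.4%, against 44.8% of all genes), and after cyclic loess 19 did, against 46.3%. With arrays centred on their medians every difference fell by 0.05 alike, which put 23 below 0 (60.5%, against 65.6%). The groups were fully separate in 7 genes (18.4%), 4 of them higher and 3 lower, against 23.4% of all genes, 10.6% higher and 12.8% lower. Fewer arrays leave less to overlap, and the count over all genes rose too when single arrays were dropped. Without control replicate 1 it was 12 mitotic genes (31.6%, against 38.3% of all genes), and without control replicate 2 it was 11 (28.9%, against 28.9%). Dropping replicate 2 with ANRIL siRNA gave 11 (28.9%, against 42.3%), and dropping replicate 3 gave 12 (31.6%, against 30.5%). In 33 of 38 genes the difference was smaller than the range among the 3 arrays of at least 1 group.

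**Figure D2:**
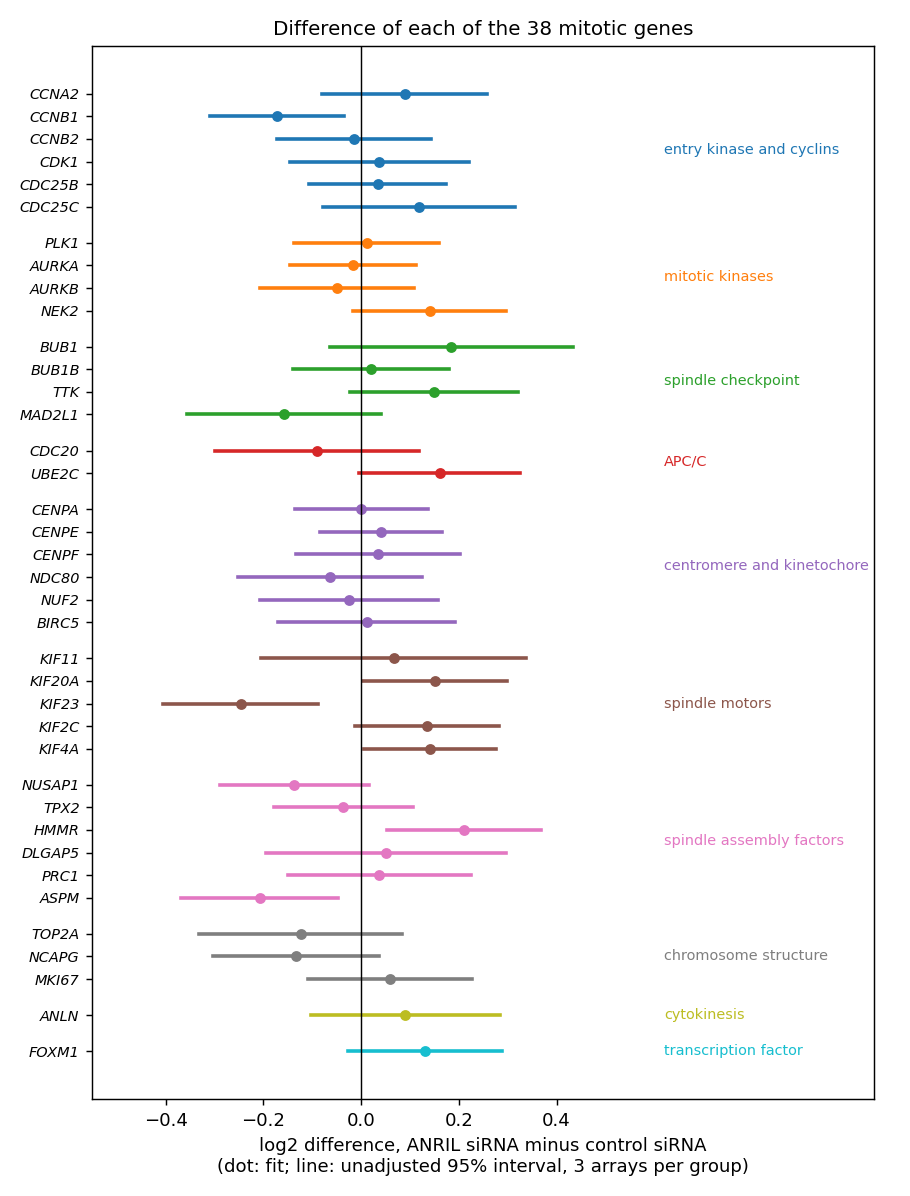
Log2 difference (ANRIL siRNA minus control siRNA) of each of the 38 mitotic genes, grouped by role, with dots for the limma estimate and lines for the unadjusted 95% interval from 3 arrays per group. Most lines cross 0 and none reaches beyond ±0.5; KIF23, ASPM and CCNB1 lie to the left of 0 and HMMR, KIF4A and KIF20A to the right.

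Among the entry kinase, its cyclins and its activating phosphatases, 4 of 6 genes were above 0 and none passed. CDK1, the catalytic engine of mitosis, lay at 6.56, 6.82 and 6.79 on control arrays and at 6.81, 6.65 and 6.82 with ANRIL siRNA. The groups overlapped almost completely (0.04 ± 0.08, adjusted p = 0.827), and without control replicate 1, the lowest array, the difference was −0.04. CCNB1 encodes cyclin B1, the main partner of CDK1 at entry. It read 8.19, 8.28 and 8.18 in controls against 8.09, 8.05 and 7.98, with every ANRIL siRNA array below every control. The difference of −0.17 ± 0.06, a 1.13-fold lower intensity, did not pass (adjusted p = 0.204), and its dimmer probe set differed by 0.13 the other way. CCNA2, the cyclin that bridges S phase and mitotic entry, had values of 7.16, 7.37 and 7.10 and then 7.26, 7.30 and 7.33. Its ANRIL siRNA arrays sat inside the control range (0.09 ± 0.08, adjusted p = 0.547). CCNB2, the other B-type cyclin here, differed by −0.02, CDC25B by 0.03 and CDC25C by 0.12, the last pair being phosphatases that release CDK1 from inhibition.

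Of the 4 mitotic kinases, PLK1, AURKA and AURKB lay within 0.05 of 0 and NEK2 lay above them. PLK1 drives centrosome maturation and much of spindle assembly, and its arrays read 6.23, 6.07 and 6.08 in controls and 6.16, 6.17 and 6.08 with ANRIL siRNA. The difference of 0.01 ± 0.07 had a 95% interval of −0.14 to 0.16 and took the other sign when single arrays were dropped. It was −0.02 with control replicate 2 left out, −0.01 with control replicate 3 left out, and −0.0018 and −0.0028 with ANRIL siRNA replicates 1 and 2 left out in turn. AURKA, the Aurora kinase of the spindle poles, was the steadiest of the 3 named kinases, at 7.67, 7.74 and 7.69 and then 7.68, 7.72 and 7.65. Its difference was −0.02 ± 0.06, with an interval of −0.15 to 0.11, and was 0.0031 without control replicate 2. AURKB, the Aurora kinase of the chromosomal passenger complex, lay at 6.30, 6.27 and 6.26 in controls. With ANRIL siRNA it was 6.37, 6.17 and 6.15, so that 1 array was above all controls and the other two were below (−0.05 ± 0.07, adjusted p = 0.729). NEK2, a kinase that helps to separate centrosomes, was at 5.17, 5.25 and 5.33 and then at 5.49, 5.37 and 5.31. Only ANRIL siRNA replicate 3 fell within the control range (0.14 ± 0.07, adjusted p = 0.321), and its dimmer probe set differed by −0.12.

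The 4 spindle checkpoint genes split. BUB1 differed by 0.18, TTK by 0.15 and BUB1B, which encodes BubR1, by 0.02, while MAD2L1, the checkpoint protein that holds CDC20 inactive, differed by −0.16. Their adjusted p-values lay between 0.334 and 0.895. The spread was wide for BUB1, whose range among arrays was 0.37 in both groups, more than its difference.

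The APC/C genes diverged in the same way. CDC20, the activator that the checkpoint restrains, read 7.05, 7.24 and 7.05 in controls and 6.85, 7.21 and 7.02 with ANRIL siRNA. The groups overlapped (−0.09 ± 0.09, adjusted p = 0.624), and ANRIL siRNA replicate 1 was the lowest array. The difference was −0.001 with that array left out. It was −0.03 with control replicate 2 dropped and −0.18 when replicate 2 with ANRIL siRNA was. UBE2C, the ubiquitin-conjugating enzyme that works with this complex, had 7.42, 7.52 and 7.30 against 7.56, 7.50 and 7.66. ANRIL siRNA replicate 2 lay below the highest control, and the 1.12-fold higher mean did not pass (0.16 ± 0.07, adjusted p = 0.292).

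Centromere and kinetochore genes spanned the narrowest range of the roles with more than 1 gene, with all 6 differences between −0.06 and 0.04. CENPA, the histone H3 variant that marks centromeres, differed by less than 0.01. CENPE, a kinetochore motor, did not overlap between the groups, with 5.84 to 5.89 in controls and 5.90 to 5.92 with ANRIL siRNA, although its difference was 0.04. CENPF differed by 0.03, and NDC80 and NUF2, which together grip microtubule ends, by −0.06 and −0.02. BIRC5 encodes survivin, the passenger complex subunit. Its values were 7.50, 7.73 and 7.81 in controls and 7.64, 7.72 and 7.71 with ANRIL siRNA. The controls were the more spread group (0.01 ± 0.08, adjusted p = 0.95), and the difference was −0.08 when control replicate 1 was dropped and −0.0043 when ANRIL siRNA replicate 2 was.

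Spindle motors held the lowest mitotic gene and a group of 4 above 0. KIF23 encodes the kinesin of centralspindlin, which bundles midzone microtubules for cytokinesis. It read 4.37, 4.29 and 4.46 in controls and 4.13, 4.22 and 4.04 with ANRIL siRNA, without overlap. The difference of −0.25 ± 0.07 (1.19-fold lower, adjusted p = 0.167) came from a probe set in decile 1 of mean signal, the dimmest of all genes, and the other probe set of KIF23 differed by −0.0005. KIF4A, a chromosome-bound kinesin, lay at 6.46, 6.58 and 6.45 in controls and at 6.64 on all 3 ANRIL siRNA arrays. The range among these 3 was 0, so leaving out any of them could not move the difference, and the cause of the equal values was not tested. The groups did not overlap (0.14 ± 0.06, adjusted p = 0.259). KIF20A, a kinesin of the central spindle, had 6.88, 6.95 and 7.05 against 7.15, 7.14 and 7.04. ANRIL siRNA replicate 3 lay below control replicate 3 (0.15 ± 0.07, adjusted p = 0.265). KIF2C, a kinesin that takes microtubules apart to correct attachments, was at 6.48, 6.39 and 6.45 and then at 6.51, 6.68 and 6.53, again without overlap (0.14 ± 0.07, adjusted p = 0.312). Its dimmer probe set differed by −0.04. KIF11, the motor that pushes the poles apart, differed by 0.07, with a range of 0.49 among the control arrays.

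**Figure D3:**
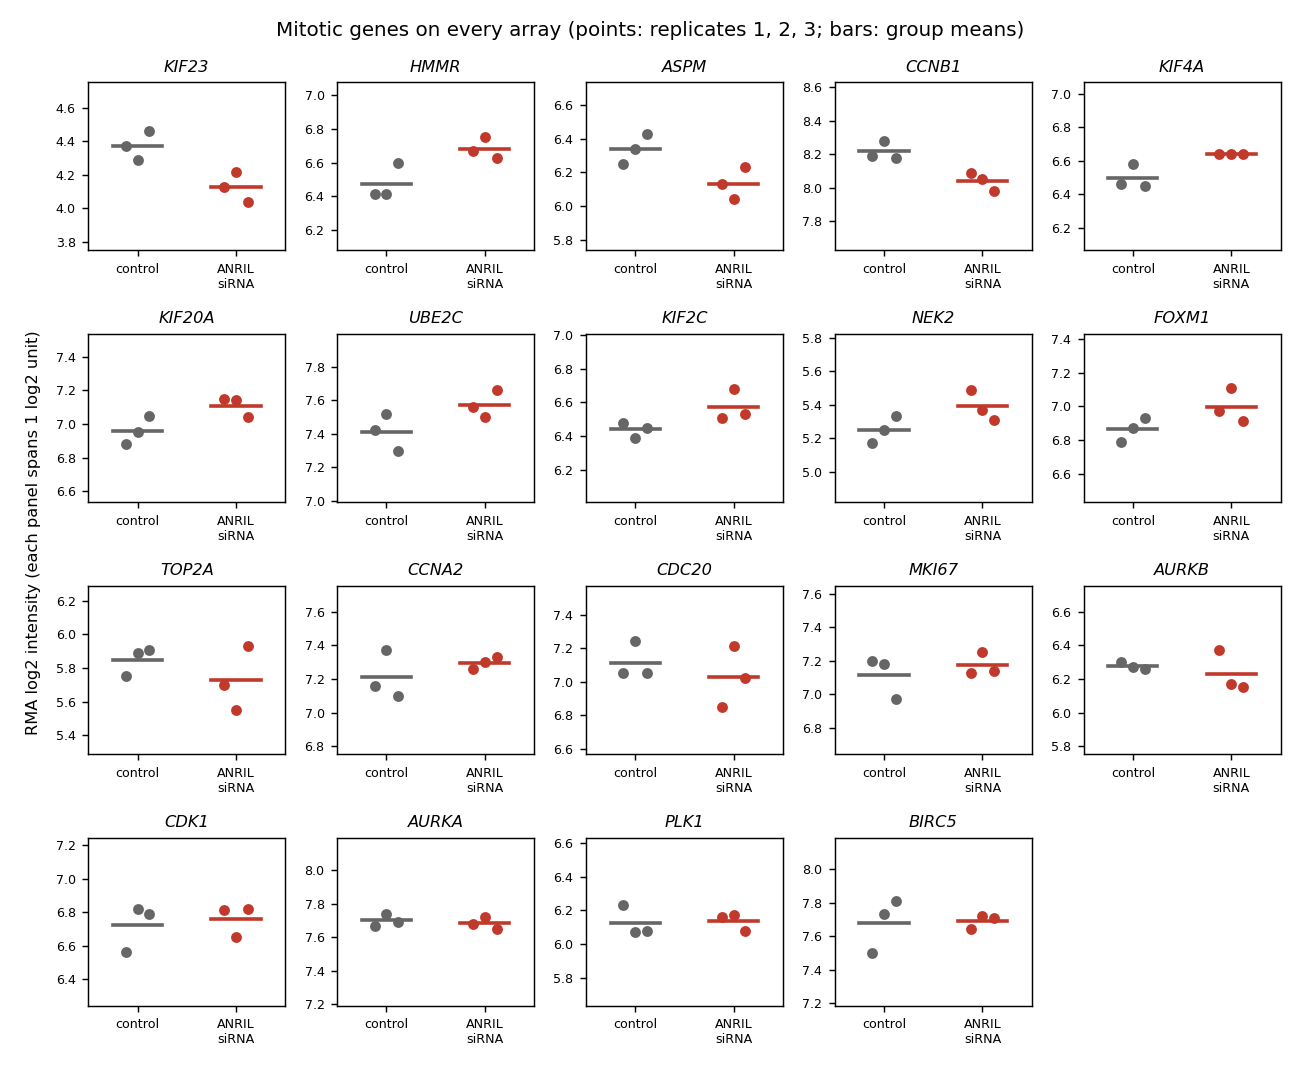
RMA log2 intensity of 19 mitotic genes on each of the 6 arrays, ordered by p, with points for replicates 1 to 3 of each siRNA, bars for group means and every panel spanning 1 log2 unit. The groups separate in KIF23, HMMR, ASPM, CCNB1, KIF4A and KIF2C by a small part of the panel height, and CDK1, AURKA, PLK1 and BIRC5 overlap.

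Spindle assembly factors held the highest mitotic gene, HMMR, and the next lowest, ASPM. HMMR encodes a hyaluronan-binding protein that inside dividing cells sits on the spindle. Control arrays read 6.41, 6.41 and 6.60, and ANRIL siRNA arrays 6.67, 6.75 and 6.63. The lowest ANRIL siRNA array was just above the highest control (0.21 ± 0.07, 1.16-fold, adjusted p = 0.189), and its other probe set differed by 0.16, the same way. ASPM, a protein of the spindle poles, was at 6.25, 6.34 and 6.43 and then at 6.13, 6.04 and 6.23. The groups separated by a narrow gap (−0.21 ± 0.07, 1.15-fold lower, adjusted p = 0.198), and of its dimmer probe sets 1 was lower, by −0.18, and 1 higher, by 0.08. NUSAP1 differed by −0.14, TPX2, the activator of AURKA, by −0.04, DLGAP5 by 0.05 and PRC1, which crosslinks antiparallel microtubules, by 0.04. None of these passed.

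Of 2 markers often used to count dividing cells, MKI67 lay above 0 and TOP2A below, and neither passed. MKI67 encodes Ki-67, which coats mitotic chromosomes, and its arrays read 7.20, 7.18 and 6.97 in controls and 7.13, 7.25 and 7.14 with ANRIL siRNA. The ranges overlapped (0.06 ± 0.08, 95% interval −0.11 to 0.23, adjusted p = 0.698). All 4 of its probe sets were above 0, though without control replicate 3 the brightest was at −0.01. TOP2A, the topoisomerase that untangles sister chromatids, lay at 5.75, 5.89 and 5.91 and then at 5.70, 5.55 and 5.93. ANRIL siRNA replicate 3 was the highest of the 6 arrays and replicate 2 the lowest (−0.12 ± 0.09, adjusted p = 0.5). The difference was −0.23 without replicate 3 and −0.04 without replicate 2. NCAPG, a condensin subunit, differed by −0.13, and ANLN, which encodes the contractile ring protein anillin, by 0.09 at its brightest probe set and −0.19 at the other. FOXM1, the transcription factor that activates many of these genes in G2 phase, read 6.79, 6.87 and 6.93 in controls and 6.97, 7.11 and 6.91 with ANRIL siRNA. Replicate 3 with ANRIL siRNA fell within the control range (0.13 ± 0.07, adjusted p = 0.35).

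Other probe sets of the same genes did not strengthen either direction. The 38 genes had 75 probe sets, 31 of them below 0, with a median difference of 0.02, where 46.1% of all probe sets were below 0. None passed over all 54613 probe sets tested (smallest adjusted p = 0.236), where 0% passed. At an unadjusted p under 0.05 there were 5 of 75, 2 higher and 3 lower, against 15.1% of all probe sets, 8.96% higher and 6.14% lower. Of the 21 genes with more than 1 probe set, 11 had probe sets on both sides of 0, 5 had all of them above and 5 all below. Those wholly above were CCNA2, CDC25C, CENPF, HMMR and MKI67. CCNB2, MAD2L1, NUSAP1, NCAPG and KIF23 were wholly below, KIF23 with its second probe set at 0. CDK1, BIRC5 and TOP2A were among those with both signs. Some of the opposing probe sets were dim, with mean signals of 3.76 for ASPM, 4.35 for BUB1 and 4.51 for NEK2. Others were brighter, at 6.88 for ANLN and 7.17 for BIRC5.

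**Figure D4:**
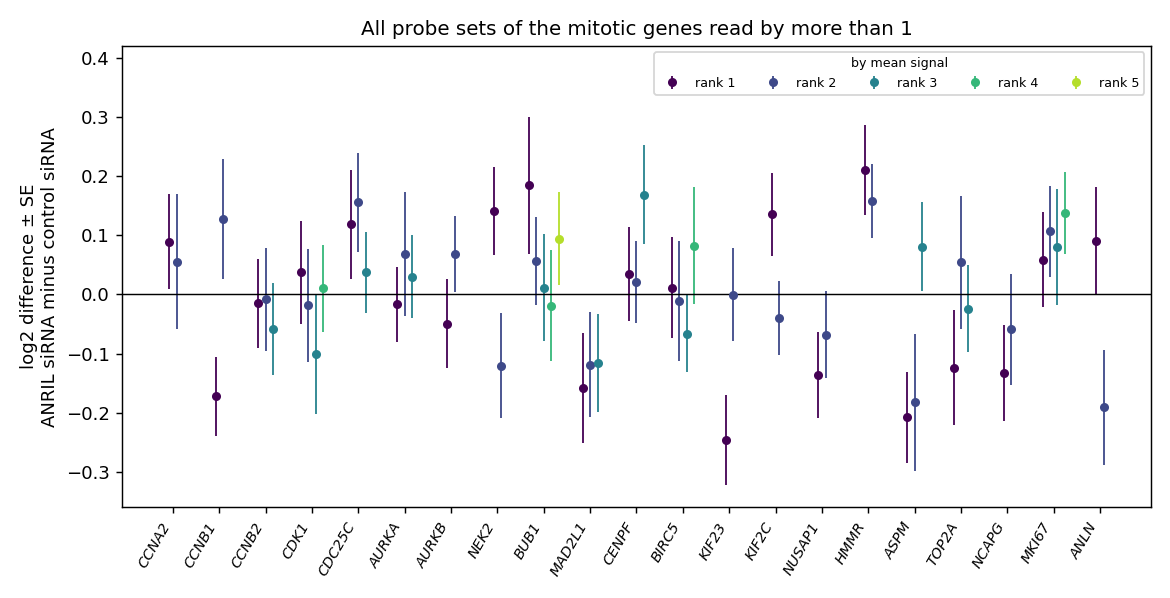
Log2 difference ± SE (ANRIL siRNA minus control siRNA, 3 arrays per group) of every probe set of the 21 mitotic genes read by more than 1, coloured by the rank of its mean signal within the gene. MAD2L1 lies below 0 and MKI67 and HMMR above 0 at every probe set, whereas CCNB1, NEK2 and ANLN have probe sets on opposite sides.

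The direction of a gene also went with its brightness. Over all genes, the median difference was 0.05 to 0.07 in the 5 dimmer deciles of mean signal and between −0.08 and 0.01 in the 5 brighter. Of the mitotic genes 27 were in the dimmer 5 and had a median of 0.04, and 11 were in the brighter 5 and had a median of −0.02. Set against the median of its own decile, 22 of 38 mitotic genes lay below. In deciles 4 to 6, which held 26 of the 38, 8 mitotic genes were below 0 (30.8%), against 35.9% of all genes there.

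**Figure D5:**
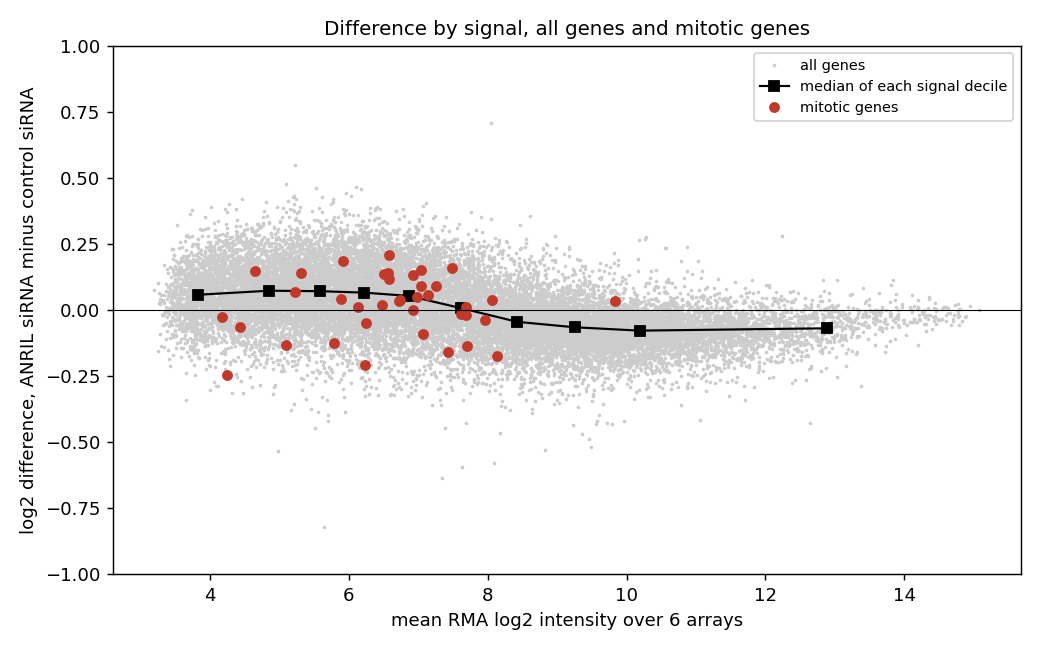
Log2 difference (ANRIL siRNA minus control siRNA) against mean RMA log2 intensity over 6 arrays for all 19775 genes (grey), the 38 mitotic genes (red) and the median of each decile of signal (black squares). The mitotic genes scatter on both sides of the black line, mostly at intensities where that line is above 0.

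No array stood apart in all mitotic genes. The median deviation of the 38 genes from their own means was −0.05, 0.04 and −0.0012 on control arrays 1, 2 and 3 and 0.03, 0.03 and −0.02 on the ANRIL siRNA arrays. Control replicate 2 was the highest array for 12 genes and control replicate 1 the lowest for 10. The arrays of the 2 groups thus interleaved.

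A list of 112 other mitotic genes, of which 110 were measured, was also without a call (smallest adjusted p = 0.147). There 51 were above 0 and 59 below (53.6%, against 51.4% of all genes), with a median of −0.01. At an unadjusted p under 0.05 there were 7 higher and 4 lower of the 110, where 9.83% of all genes were higher and 8.16% lower. Kinetochore genes had 16 of 23 above 0, with SPC24, a subunit of the NDC80 complex, at 0.27 ± 0.06 and SKA3, which stabilises kinetochore attachments, at 0.17 ± 0.07. SPC24 has the largest difference of the 110. SKA3 was in decile 5 and SPC24 in decile 6 of mean signal, where 32.7% and 47.1% of all genes were below 0. The kinetochore class as a whole was not set against genes of like brightness. Checkpoint and passenger genes had 5 of 9 above 0, with ZW10 at 0.22 ± 0.08 and BUB3, a partner of BUB1, at −0.17 ± 0.06. Condensin, cohesin and separase genes had 7 of 20 above 0, with NCAPH, a condensin subunit, at 0.27 ± 0.09 and RAD21, the cohesin kleisin, at −0.21 ± 0.07. In the last 2 classes the pair of smallest p held 1 gene of each sign.

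In the remaining classes fewer genes were above 0 than below. APC/C subunits and cofactors had 6 of 16 above 0, with CDC23 at −0.13 ± 0.06 and ANAPC16 at −0.13 ± 0.06, both bright probe sets in deciles where most genes were lower. Other spindle and motor genes had 8 of 20, with HAUS1, an augmin subunit, at −0.17 ± 0.06 and TACC3 at −0.15 ± 0.08. Cytokinesis genes had 3 of 8, with DEPDC1 at 0.20 ± 0.07 and ECT2, the exchange factor that activates RhoA at the midzone, at −0.13 ± 0.07. Further cyclins, kinases and phosphatases had 6 of 15, with WEE1, the kinase that inhibits CDK1, at −0.09 ± 0.06 and BORA, a cofactor in PLK1 activation, at 0.09 ± 0.06.

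The regulators of these promoters were read as well. Of 14 genes for MuvB, DREAM and NF-Y proteins 5 were above 0 and 9 below (64.3%, against 51.4% of all genes), with a median of −0.03. None passed (smallest limma adjusted p = 0.154). LIN37, a MuvB subunit needed for DREAM repression, differed by −0.28 ± 0.07 and RBL2, the pocket protein p130, by −0.13 ± 0.06, each without overlap between the groups. Without overlap, 4 of the 14 were lower and 1 higher, against 12.8% and 10.6% of all genes. LIN37 was in decile 7 and RBL2 in decile 9 of mean signal, where 68% and 87.2% of all genes were below 0.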

How the data were processed

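The authors deposited log2 intensities for 54675 probe sets on 6 Affymetrix U133 Plus 2.0 arrays, made with RMA, with affy and limma also named per the submitters' processing notes. RMA background-corrects, quantile-normalizes and summarises probes on a log scale. Tool versions, and any filter, were not stated in the notes. After leaving out 62 control probe sets, 54613 were tested. Of these 41091 had 1 symbol, 1801 several and 11721 were not listed in the platform annotation. Symbols were updated through Entrez identifiers (41037 matched RefSeq, GRCh38.p14). Linear models per gene used limma 3.58.1 (lmFit, eBayes) under R 4.3.3, with no low-signal filter and no replicate block, and p-values were two-sided, adjusted by Benjamini-Hochberg over all genes at 0.05. The fit was tested on simulated data. Single values used exact permutation tests. Members and lists were chosen with earlier results of these data known. Values on every array are given for 11 regulators and the 8 other members of smallest p, and from each pathway list at most the 2 genes of smallest p are named. Alternatives are given in the closing section. The number of arrays limits the precision.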

Additional observations from a re-analysis of the deposited data

How the results depend on the processing

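In the 16 alternative settings 0 of the mitotic genes tested passed over all genes. The smallest adjusted p among them was 0.0843, with only genes above the median signal, which left 11 mitotic genes. The count of all genes called was 0 and became 541 with an intensity-trended robust prior, 134 with cyclic loess and that prior together, 32 with arrays centred on medians and 309 with only genes above the median signal, and 0 without any single array. With the replicate block the calls were 0 over all genes and 0 among mitotic genes (smallest adjusted p = 0.174), with 14 mitotic genes below 0 and a median difference of 0.03; the block changed no call. Same-numbered arrays were not taken as pairs, since their deviations from the group means correlated at 0.04, 0.18 and −0.02 over genes, and control replicate 1 correlated best with ANRIL siRNA replicate 3, at 0.18. The number of mitotic genes below 0 was 23 with arrays centred on medians and 6 of 11 above the median signal, and ranged from 11 to 19 without single arrays. Their median difference was then −0.0162 and −0.0152. The number without overlap was 4 with arrays centred on medians (10.5%, against 24.9% of all genes), 1 of 11 above the median signal (9.09%, against 28.0%) and 4 of 31 when _s_at and _x_at probe sets were left out (12.9%, against 21.9%), and ranged from 10 to 12 without single arrays, where the share of all genes ranged from 28.9% to 42.3%. At an unadjusted p under 0.05, a count added after the data had been seen, there were 1 of 31 when _s_at and _x_at probe sets were left out (against 16.9% of all genes) and 3 of 11 above the median signal (against 24.4%), and between 4 and 9 in the other settings. The cause of these shifts was not tested, beside the fewer genes or arrays that some settings hold. No named gene passed in any setting, and those that changed sign were near 0 in the reported analysis or moved to another probe set. With arrays centred on medians every difference fell by 0.0503 alike, which fixes the sign of those near 0, and 65.6% of all genes were below 0. CDK1 was then at −0.0128, PLK1 at −0.0385 and BIRC5 at −0.0389. PLK1 was at −0.0389 after repeated quantile normalization and at −0.0458 after cyclic loess with either prior. With the mean of all probe sets CDK1 was at −0.0181, AURKA at 0.0271 and AURKB at 0.0095. Without _s_at and _x_at probe sets CDK1 was at −0.0188, CCNB1 at 0.127, AURKA at 0.0297 and BIRC5 at −0.0663. With array weights AURKB was at 0.0047 and BIRC5 at −0.024. Of the 19 named genes 13 changed sign or moved by over 1.5 times without at least 1 array, and ASPM, CCNB1, HMMR, KIF20A, KIF23 and KIF4A did not. KIF4A could move only when a control array was left out, because its ANRIL siRNA values were equal. Without single arrays, CDK1 ranged from −0.0446 to 0.0919, PLK1 from −0.0183 to 0.0644, AURKA from −0.0362 to 0.0031, BIRC5 from −0.0784 to 0.0753 and MKI67 from −0.0147 to 0.0999.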

Other observations

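Genes of DNA replication, which rise before the mitotic genes in the cycle, were not called either. Of 31 measured 21 were below 0 (67.7%, against 51.4% of all genes) and 10 above, with a median of −0.04 (smallest limma adjusted p = 0.158). TK1 and TYMS, which both supply thymidine nucleotides for replication, lay on opposite sides of 0, each without overlap between the groups, at 0.24 ± 0.07 and −0.21 ± 0.06. Neither passed. TK1 was in decile 7 and TYMS in decile 9 of mean signal, where 68% and 87.2% of all genes were below 0. The list as a whole was not set against genes of like brightness.

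Of 8 measured genes linked to cell cycle exit, 7 were below 0 (87.5%, against 51.4% of all genes), with a median of −0.11. All but CDKN1C, in decile 5, lay in deciles 7 to 10 of mean signal, where 68% to 87.7% of all genes were below 0. GADD45A, a stress-induced growth arrest gene, differed by −0.36 ± 0.06 (adjusted p = 0.125), and CCNG2, a cyclin raised in resting cells, by −0.20 ± 0.07 (adjusted p = 0.21). None of the 8 passed, and both of these were in deciles 9 and 10 of mean signal, where 87.2% and 87.7% of all genes were below 0.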
